A study of Homo sapiens with 8 samples.

Results

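The NF-kB genes described here are 10 members chosen by name: the subunit genes NFKB1, NFKB2, RELB, REL and RELA, the inhibitor and feedback genes NFKBIA, NFKBIE, TNFAIP3 and BIRC3, and the adhesion gene ICAM1. They were chosen with earlier results of these data known, so their shares beside those of all genes are descriptions and not independent results. Each symbol matched 1 of the 57992 genes in the count table, and all 10 passed the filter on low counts that left 18314 genes for testing. The 8 libraries form 4 groups of 2, the lines KG1A and U937 each with PBS as vehicle or with dG, named so in the labels, at 10 mM. Both are human cell lines that the labels list as acute myeloid leukaemia lines, KG1A being of immature, CD34-bearing character and U937 of monocytic character. All cultures grew in RPMI medium with dialyzed serum, the duration of treatment was not given in the sources used here, and the labels name no engineered allele. The study's title sets the question of whether disturbed deoxynucleotide pools release a block in maturation. The comparisons below ask how the NF-kB genes stood in dG against PBS within each line, and how they stood between the lines in PBS.

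NF-kB is a family of transcription factors that act as dimers. RELA, REL and RELB carry activation domains, whereas NFKB1 and NFKB2 are made as long precursors that are trimmed to DNA-binding subunits and also hold partners in the cytoplasm. In resting cells IkB proteins such as those of NFKBIA and NFKBIE keep the dimers out of the nucleus. After stimulation the IKK kinases mark IkB for destruction, the dimers enter the nucleus, and many of the genes they switch on, NFKBIA and TNFAIP3 among them, feed back to stop the signal. A second, non-canonical arm runs through the kinase of MAP3K14, the NFKB2 precursor and RELB. In myeloid cells the pathway is known for its part in survival and inflammatory gene expression.

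Promoter sequences are shown because NF-kB dimers bind a short motif, the kappa B consensus, and several members are known targets of the family themselves. In RefSeq promoter windows (GRCh38.p14, 250 bases before to 50 bases after an annotated start), 8 of the 10 members had entries, with 12 windows in all. The consensus was searched on both strands as the fixed form GGGRNNYYCC, where R is A or G, Y is C or T and N is any base. Overlapping matches were counted as 1. At least 1 window held a match for 6 of the 8 members (75%), against 17.2% of the 10474 genes tested that had a window, 13.3% of the 27305 genes with windows of this length and 29.6% of 81 other NF-kB pathway genes. Counted by window, the shares were 7 of 12 (58.3%) for the members and 11.3% of 35116 windows in all. A match is a description of letters and not a measured binding site. The NFKBIA stretch, chr14:35404750-35404999 on the minus strand, and the BIRC3 stretch, chr11:102317234-102317449 on the plus strand, are printed 5′ to 3′ with matches in capitals. They are chosen because BIRC3 was called higher in both lines and NFKBIA in U937 but not in KG1A.
NFKBIA: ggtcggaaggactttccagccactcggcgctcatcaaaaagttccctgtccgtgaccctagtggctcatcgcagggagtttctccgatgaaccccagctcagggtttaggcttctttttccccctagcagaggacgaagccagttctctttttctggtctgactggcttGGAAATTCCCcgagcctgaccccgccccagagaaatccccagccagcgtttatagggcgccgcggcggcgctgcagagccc
BIRC3: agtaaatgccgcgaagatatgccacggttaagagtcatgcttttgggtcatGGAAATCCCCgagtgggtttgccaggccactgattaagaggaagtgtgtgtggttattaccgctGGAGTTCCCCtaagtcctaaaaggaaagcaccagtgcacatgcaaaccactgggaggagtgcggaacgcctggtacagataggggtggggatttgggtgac

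The NFKBIA match lay 81 to 72 bases before the annotated start, and the BIRC3 matches began 199 and 135 bases before it. For 4 other members only the match and 8 bases on each side are shown. NFKB1 and REL are given because they carry a match like the others but differed little or moderately in dG, and NFKB2 and TNFAIP3 because they were among the larger rises in both lines.
NFKB1: acgtcagtGGGAATTTCCagccagga
NFKB2, first match: aacgtcatGGGAATTCCCCcctccggg
NFKB2, last match: gtattttcGGGACTTTCCtaagctgc
REL: tcagccgcGGGAAATTCCCctcccgcc
TNFAIP3, first match: gtgactttGGAAAGTCCCgtggaaat
TNFAIP3, second match: agtcccgtGGAAATCCCCgggcctac

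The sites lie at chr4:102501310-102501319 (NFKB1), chr10:102394471-102394481 and chr10:102395684-102395693 (NFKB2), chr2:60881527-60881537 (REL), and chr6:137867192-137867201 and chr6:137867204-137867213 (TNFAIP3). No match to this fixed form was found in the windows of RELA and ICAM1, and RELB and NFKBIE had no entry. The stretch searched before the ICAM1 start, 10270870 to 10271119, lies inside the ICAM1 span of the count table, which begins at 10270835. Sites outside the windows, or that depart from the fixed form, were not searched for, so the lack of a match does not show the lack of a site.

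Library totals ran from 21053724 to 31135338 counts, of which 9548 to 18339 per library fell on the 10 members. Levels are in CPM, which relate counts to a library size scaled by TMM, and 1 count was worth 0.0321 to 0.0475 CPM before that scaling. The mitochondrial share of counts was lower with dG in both lines, at 8.01% to 8.30% against 9.12% to 9.19% in KG1A and 7.93% to 8.18% against 9.76% to 9.83% in U937. Its part in the results below, and that of the marker lists, was not tested. Nothing in the labels ties the replicates to separate cultures. The p-values therefore reflect only the spread between these libraries, largely shared across genes, and that spread may be technical. In KG1A PBS, CD34 lay at 931 CPM, and THY1 was at 0 in every group. The progenitor marker list summed to 963 to 964 CPM in KG1A PBS, against about 1.04 CPM in U937 PBS. CD34 and CD7 (30.6 CPM) made up nearly all of the KG1A sum. KIT (1.02 CPM) and PROM1 (0.645 CPM) were low in KG1A PBS. FLT3 ran the other way between the lines, at 0.039 CPM in KG1A PBS and 0.296 CPM in U937 PBS. In KG1A dG the progenitor list summed to 1221 to 1232 CPM, with CD34 at 1190 CPM. Of the U937 list, AZU1, ELANE, PRTN3 and CTSG lay between 102 and 498 CPM in U937 PBS, although MPO was at 0.162 CPM. The 9 markers of that list summed to 0.347 to 0.41 CPM in KG1A PBS and 1.74 to 2.56 CPM in KG1A dG, against 1025 to 1029 CPM in U937 PBS and 1910 to 1973 CPM in U937 dG. The T cell genes CD3D (94.9 CPM) and CD3E (10.7 CPM) were expressed in KG1A PBS, with CD3G and CD2 below 0.2 CPM, and the 4 erythroid markers were at 0 in PBS in both lines. Bulk libraries cannot tell fewer cells of a type from less RNA per cell. A gene was called at an adjusted p below 0.05 in edgeR's quasi-likelihood test over all 18314 genes, and log2 fold changes are given ± standard error.

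**Figure D1:**
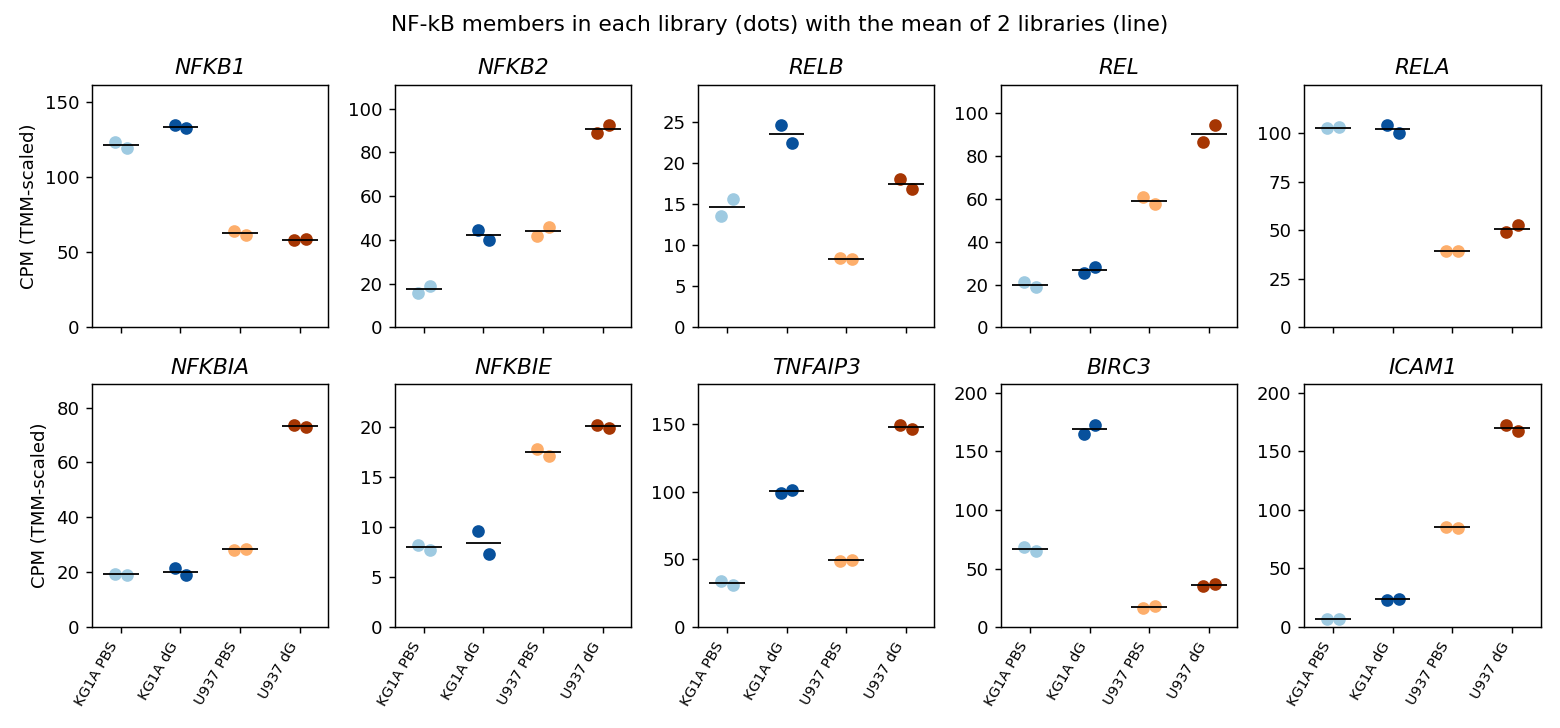
Each panel shows the CPM of 1 member (vertical axis, starting at 0) in the 4 groups (horizontal axis), with a dot per library and a line at the mean of 2 libraries. NFKB2, RELB, REL, TNFAIP3, BIRC3 and ICAM1 are higher in dG than in PBS in each line, and NFKBIA only in U937 stands clear of its PBS libraries.

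In KG1A, dG raised TNFAIP3, BIRC3, ICAM1 and NFKB2 by 2.39 to 3.54-fold, raised RELB and REL less, and left RELA, NFKBIA and NFKBIE without a call. In all, 7 of the 10 members were called higher and 0 lower. Among all genes tested 29.6% were called higher and 19.6% lower, or 49.1% in either direction. At least 2-fold higher and called were 4 members, against 5.64% of all genes, and 0 were called at least 2-fold lower, against 1.15%. The dG libraries lay wholly above the PBS libraries for 7 members, against 40.6% of all genes, and wholly below for 0, against 29.6%. The members' median log2 fold change was 0.55, beside 0.04 for all genes.

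Among the subunits in KG1A, NFKB2, the precursor of the non-canonical arm, gave 15.9 and 19.2 CPM in PBS and 44.4 and 40.0 CPM in dG. All dG values lay above all PBS values, and the log2 fold change was 1.26 ± 0.07 (adjusted p = 6.01e-17). RELB, the usual partner of the NFKB2 product, gave 13.6 and 15.7 CPM in PBS and 24.5 and 22.4 CPM in dG, a rise of 0.68 ± 0.08 (adjusted p = 6.74e-09). REL, a subunit prominent in blood cells, gave 21.01 and 18.8 CPM in PBS and 25.2 and 28.2 CPM in dG. Its groups did not overlap either, and it rose by 0.43 ± 0.07 (adjusted p = 5.78e-06). RELA, the activating subunit of the canonical dimer, gave 102 and 103 CPM in PBS and 104 and 100.2 CPM in dG. The RELA libraries of both treatments were interleaved, with a log2 fold change of -0.01 ± 0.04 and a 95% interval of -0.09 to 0.08 (adjusted p = 0.914). NFKB1, the precursor of the canonical arm, gave 124 and 119 CPM in PBS and 135 and 133 CPM in dG, a log2 fold change of 0.14 ± 0.04 (adjusted p = 0.00313). This small rise was not called with library size alone (0.07 ± 0.04, adjusted p = 0.11) or without 1 U937 dG library (replicate 1: 0.07, adjusted p = 0.162; replicate 2: 0.07, adjusted p = 0.163) or KG1A PBS replicate 2 (0.11, adjusted p = 0.0836).

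The KG1A feedback genes fell into a pair that rose and a pair that did not pass the test. TNFAIP3, which encodes an enzyme that edits ubiquitin and shuts the pathway down, gave 34.3 and 31.2 CPM in PBS and 99.4 and 101 CPM in dG. The treated libraries stood about 3-fold above the vehicle libraries, with a log2 fold change of 1.62 ± 0.05 (fold 3.07, adjusted p = 7.78e-25). BIRC3, a ubiquitin ligase that protects from death receptor signalling and restrains the MAP3K14 kinase, gave 68.4 and 65.1 CPM in PBS and 165 and 173 CPM in dG. Its log2 fold change was 1.34 ± 0.04 (fold 2.53, adjusted p = 7.31e-24). NFKBIA, the main IkB of the canonical dimer, gave 19.3 and 19.1 CPM in PBS and 21.4 and 19.0 CPM in dG. Of the dG libraries 1 lay above and 1 below the PBS pair, and the log2 fold change was 0.08 ± 0.07 with a 95% interval of -0.07 to 0.22 (adjusted p = 0.39). NFKBIE, a further IkB, gave 8.23 and 7.73 CPM in PBS and 9.56 and 7.26 CPM in dG, with overlapping groups and a log2 fold change of 0.09 ± 0.11 (adjusted p = 0.559). ICAM1, the ligand of leukocyte beta2 integrins and a classic NF-kB target, gave 6.89 and 6.49 CPM in PBS and 23.2 and 24.0 CPM in dG. With 159 to 190 counts in PBS and 595 to 654 in dG, it had the largest fold among the members in KG1A, 3.54 (log2 1.82 ± 0.08, adjusted p = 3.24e-20). In KG1A dG, ICAM1 lay at 23.6 CPM. The U937 marker list summed to 0.347 to 0.41 CPM in KG1A PBS and 1.74 to 2.56 CPM in KG1A dG. Of that list, CTSG (0.172 to 1.19 CPM) and CD33 (0.0604 to 0.731 CPM) were higher in dG. LYZ was lower (0.09 to 0.0178 CPM), and the other markers stayed near 0. Whether the marker list and ICAM1 are linked was not tested.

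In U937, dG raised 9 of the 10 members, led by TNFAIP3 at 2.99-fold and NFKBIA at 2.59-fold, and 1 member, NFKB1, was called lower. Over all genes tested 32.4% were called higher and 31.5% lower, or 64% in either direction. At least 2-fold higher and called were 5 members, against 9.71% of all genes, and 0 were called at least 2-fold lower, against 7.74%. The dG libraries lay wholly above the PBS libraries for 9 members and wholly below for 1, where the shares of all genes were 39.2% and 39.8%. The median log2 fold change was 1.02 over the members and 0 over all genes.

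Of the U937 subunits, NFKB2 gave 42.0 and 46.1 CPM in PBS and 88.8 and 92.4 CPM in dG, a log2 fold change of 1.04 ± 0.06 (adjusted p = 4.31e-18). RELB gave 8.47 and 8.29 CPM in PBS and 18.1 and 16.9 CPM in dG (1.06 ± 0.10, adjusted p = 3.645e-12). The 2 genes of the non-canonical dimer thus both about doubled, with no overlap of the groups. REL gave 60.7 and 57.7 CPM in PBS and 86.4 and 94.3 CPM in dG, a rise of 0.61 ± 0.05 (adjusted p = 1.56e-12). RELA gave 39.2 and 39.3 CPM in PBS and 49.0 and 52.5 CPM in dG, a rise of 0.37 ± 0.05 (adjusted p = 1.12e-07). NFKB1 gave 64.1 and 61.9 CPM in PBS and 58.2 and 58.7 CPM in dG. Its log2 fold change of -0.11 ± 0.05 barely passed the test (adjusted p = 0.0393), and it was not called with DESeq2 (-0.02 ± 0.06, adjusted p = 0.828), with the replicate number as a block (-0.11 ± 0.05, adjusted p = 0.063) or without U937 PBS replicate 1 (adjusted p = 0.216), either dG library of U937 (replicate 1 adjusted p = 0.567, replicate 2 adjusted p = 0.516).

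All 4 feedback genes were called higher in U937. TNFAIP3 gave 49.23 and 49.99 CPM in PBS and 150 and 147 CPM in dG (1.58 ± 0.04, adjusted p = 8.16e-27). NFKBIA gave 28.0 and 28.6 CPM in PBS and 73.7 and 73.0 CPM in dG, a log2 fold change of 1.37 ± 0.06 (adjusted p = 5.79e-22). BIRC3 gave 16.1 and 17.6 CPM in PBS and 35.3 and 37.2 CPM in dG (1.11 ± 0.07, adjusted p = 3.13e-17). These 3 genes stood clear of their PBS libraries by at least 2-fold. NFKBIE gave 17.8 and 17.1 CPM in PBS and 20.2 and 19.9 CPM in dG, and its change of 0.20 ± 0.09 was near the threshold (adjusted p = 0.0431). It was not called with library size alone (0.13, adjusted p = 0.215), or without U937 PBS replicate 1 (0.22, adjusted p = 0.0762), U937 PBS replicate 2 (0.16, adjusted p = 0.192) or U937 dG replicate 1 (0.25, adjusted p = 0.061). ICAM1 gave 85.5 and 84.7 CPM in PBS and 172 and 167 CPM in dG, a rise of 1.00 ± 0.04 (fold 1.99, adjusted p = 6.61e-22). The U937 marker list was also higher in sum in dG, as given above. CTSG (498.5 to 1120 CPM), AZU1 (151.8 to 332.5 CPM) and LYZ (23.67 to 221.6 CPM) were higher, whereas PRTN3 (196.8 to 96.79 CPM), CSF1R (1.626 to 1.441 CPM) and MPO were lower.

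**Figure D2:**
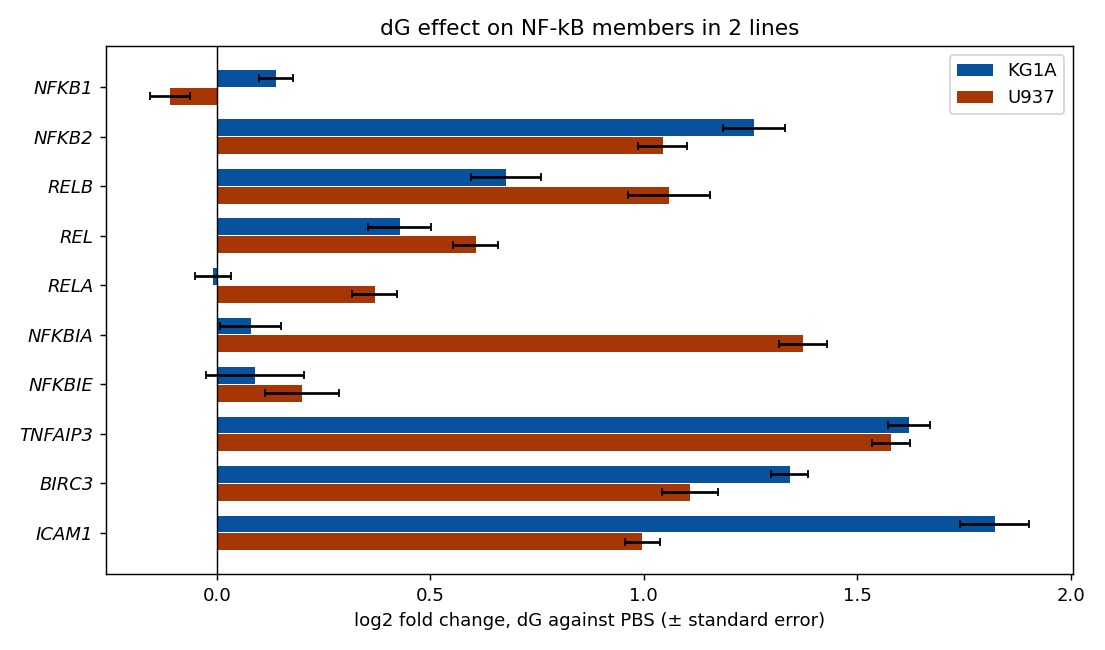
Horizontal bars give the log2 fold change of each member for dG against PBS in KG1A (blue) and U937 (brown), with the standard error. TNFAIP3 has bars of near-equal length (1.62 and 1.58), whereas NFKBIA has 0.08 in KG1A and 1.37 in U937, and ICAM1 1.82 and 1.00.

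Called higher in both lines were 6 members (NFKB2, RELB, REL, TNFAIP3, BIRC3 and ICAM1), against 15.4% of all genes, and 1 (NFKB1) was called in opposite directions, against 7.44%. The test of the difference, the U937 effect minus the KG1A effect, asked where the lines answered unequally. It called 3 members higher and 3 lower, 6 of 10, where 44.1% of all genes were called (17.6% higher, 26.4% lower). With at least 2-fold required, 1 member was higher and 0 lower, against 4.02% and 7.04% of all genes. NFKBIA had the largest difference, 1.29 ± 0.09 (95% interval 1.11 to 1.48, adjusted p = 1.89e-14), being higher in U937 dG only. ICAM1 differed the other way by -0.83 ± 0.09 (adjusted p = 2.22e-09), its larger fold being in KG1A, where it started from a level 12.7-fold lower. RELA differed by 0.38 ± 0.07 (adjusted p = 1.33e-05) and RELB by 0.38 ± 0.13 (adjusted p = 0.013). The RELB difference was not called without KG1A PBS replicate 2 (0.26, adjusted p = 0.155) or KG1A dG replicate 2 (0.32, adjusted p = 0.0505). BIRC3 (-0.23 ± 0.08, adjusted p = 0.0168) and NFKB1 (-0.25 ± 0.06, adjusted p = 0.000893) differed by little. Both of these calls ended with DESeq2 (-0.13, adjusted p = 0.332, and -0.15, adjusted p = 0.133) and without either U937 dG library. The BIRC3 call also ended without KG1A PBS replicate 2 (adjusted p = 0.0753) or U937 PBS replicate 2 (adjusted p = 0.114). In the design as fitted, no difference was called for TNFAIP3 (-0.04 ± 0.07, 95% interval -0.18 to 0.10), NFKB2 (-0.21, interval -0.41 to -0.02, adjusted p = 0.063), REL (0.18, interval -0.01 to 0.36, adjusted p = 0.113) or NFKBIE (0.11, interval -0.18 to 0.40). The median difference over all genes was -0.10, and 0.01 with DESeq2, so differences of about 0.2 depended on the scaling. The counts of all genes moved likewise, from 3230 higher and 4843 lower to 4021 and 3898 with DESeq2-type size factors. Without KG1A PBS replicate 2 the NFKB2 difference passed the test (-0.37, adjusted p = 0.00466), as it did without KG1A dG replicate 2 (-0.29, adjusted p = 0.00836) or U937 PBS replicate 1 (-0.29, adjusted p = 0.0187). The REL difference passed when replicate 2 of either KG1A group was left out (PBS: 0.26, adjusted p = 0.0456; dG: 0.25, adjusted p = 0.0279), and likewise with either dG library of U937 left out (0.37, adjusted p = 0.00335, and 0.25, adjusted p = 0.0482). It also passed with DESeq2 (0.28, adjusted p = 0.0434), edgeR with DESeq2-type size factors (0.28, adjusted p = 0.0119), no filter (0.31, adjusted p = 0.00404) and RPKM at a pseudocount of 1 with and without a filter (0.34, adjusted p = 0.0274 and 0.0424). REL was thus called in 9 of 16 alternatives, and whether its response differed between the lines depended on the setting.

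In PBS, all 10 members were called between the lines, 6 higher and 4 lower in U937, in a comparison where 82.3% of all genes were called (41.4% higher, 40.8% lower). The count of calls is therefore no result about the members, whose levels are given as a description. The comparison shares its PBS libraries with those above. At least 2-fold, 4 members were higher and 2 lower, against 22.7% and 21.2% of all genes. ICAM1 differed most, at 85.1 ± 0.59 CPM in U937 and 6.69 ± 0.28 in KG1A (mean ± SD, n = 2), a log2 difference of 3.67 ± 0.07. REL (1.58 ± 0.06), NFKB2 (1.31 ± 0.07) and NFKBIE (1.14 ± 0.10) were more than 2-fold higher in U937, and TNFAIP3 (0.60 ± 0.05) and NFKBIA (0.56 ± 0.07) less so. KG1A held more of BIRC3, at 66.7 ± 2.29 against 16.9 ± 1.05 CPM (log2 difference -1.99 ± 0.06). It also held more RELA (-1.39 ± 0.05), NFKB1 (-0.94 ± 0.04) and RELB (-0.81 ± 0.10). The libraries of the lines did not overlap for any of the 10 (6 higher, 4 lower), where the shares of all genes without overlap were 45.5% and 44.9%, and the 6 and 4 calls were the same under all 17 alternatives. Over the 4 groups, levels ran in the order U937 dG, U937 PBS, KG1A dG, KG1A PBS for NFKB2, REL, NFKBIA, NFKBIE and ICAM1. In that order NFKB2 in U937 PBS and KG1A dG overlapped (42.0 and 46.1 against 44.4 and 40.0 CPM), as did the 2 KG1A groups of NFKBIA and of NFKBIE. BIRC3 ran from KG1A dG over KG1A PBS to U937 dG and U937 PBS with no overlap, so that its U937 dG level of 36.3 CPM stayed below KG1A in PBS. TNFAIP3 ran U937 dG, KG1A dG, U937 PBS, KG1A PBS, and RELB ran KG1A dG, U937 dG, KG1A PBS, U937 PBS, with no overlap between neighbours.

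Levels of different genes were compared per length, in the deposited RPKM, which divide by the summed length of all annotated exons, so a gene transcribed mainly as a short form is understated. In KG1A PBS, NFKB1 (19.7 ± 0.46 RPKM, mean ± SD, n = 2) and RELA (19.1 ± 0.13) led the 10 members and ICAM1 (1.84 ± 0.07) and REL (1.80 ± 0.14) came last, these last overlapping each other. In KG1A dG, BIRC3 (21.8 ± 0.64 RPKM) led, followed by NFKB1 (20.7 ± 0.26), TNFAIP3 (19.3 ± 0.20) and RELA (18.1 ± 0.53). Here NFKB2 (9.13 ± 0.69) overlapped NFKBIA (8.27 ± 0.72), which overlapped RELB (7.51 ± 0.51). In U937 PBS, ICAM1 (22.6 ± 0.38 RPKM) and NFKBIA (11.8 ± 0.05) led, and NFKB1, TNFAIP3 and NFKB2 lay together at 9.92, 9.68 and 9.68. In U937 dG, ICAM1 (47.0 ± 1.52), NFKBIA (31.7 ± 0.53) and TNFAIP3 (30.1 ± 0.74) led, and BIRC3 (4.95 ± 0.13) came last.

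The make-up of the 5 subunit mRNAs, each as a share of their summed RPKM, separated the lines and moved with dG. In KG1A PBS, NFKB1 took 40.8% and 38.9% and RELA 38.8% and 38.5%, whereas NFKB2 took 7.31% and 8.73%. With dG the NFKB2 share in KG1A was 16.3% and 15.3%, and the RELA share 31.3% and 31.4%. In U937 PBS, NFKB2 took 26.8% and 29.2%, about level with NFKB1 at 29.3% and 28.1%, and REL took 15.4% and 14.6% against 3.86% and 3.40% in KG1A PBS. In U937 dG the NFKB2 share was 38.3% and 38.5% and the NFKB1 share 18.01% and 17.51%. The ratio of NFKB2 to NFKB1 thus went from 0.202 ± 0.032 to 0.441 ± 0.028 in KG1A and from 0.977 ± 0.090 to 2.16 ± 0.051 in U937 (mean ± SD, n = 2). RELB to RELA went from 0.256 ± 0.025 to 0.413 ± 0.016 and from 0.384 ± 0.006 to 0.621 ± 0.060. In each of these 4 pairs the dG libraries lay above the PBS libraries. Summed RPKM of the subunits went from 49.12 and 49.96 to 59.1 and 56.5 in KG1A, and from 34.7 and 34.5 to 53.5 and 54.6 in U937. The 4 feedback genes of KG1A summed to 27.6 and 26.4 with PBS and to 52.9 and 52.2 with dG, and those of U937 to 30.4 and 30.3 with PBS and 75.7 and 73.9 with dG. Feedback to subunit mRNA in KG1A was 0.562 and 0.528 with PBS and 0.895 and 0.923 with dG. In U937 it was 0.875 and 0.878 with PBS and 1.42 and 1.35 with dG. The ratio was higher in dG than in PBS in every library of each line. In KG1A its rise came from TNFAIP3 and BIRC3, at 6.60 and 9.03 RPKM with PBS and 19.3 and 21.8 with dG (means). The IkB genes NFKBIA and NFKBIE stayed level in KG1A, at 8.23 and 3.14 RPKM with PBS and 8.27 and 3.16 with dG. No test was made of shares and ratios, since 2 libraries against 2 cannot go below p = 0.333 in an exact two-sided permutation test.

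**Figure D3:**
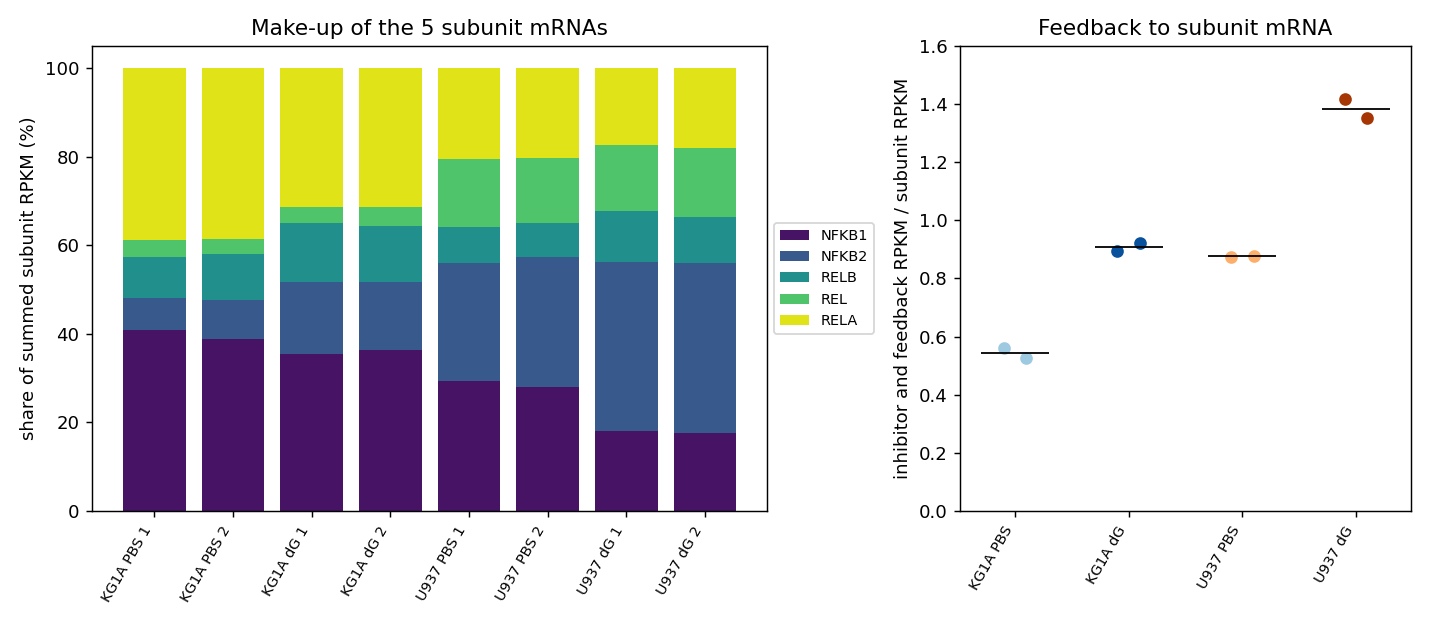
The left panel stacks the share of each subunit in the summed subunit RPKM (percent) for each of the 8 libraries. The right panel shows the ratio of summed inhibitor and feedback RPKM to summed subunit RPKM, a dot per library and a line at the mean. KG1A dG (0.895 and 0.923) lies near U937 PBS (0.875 and 0.878), and U937 dG lies highest. Of the summed inhibitor and feedback genes, TNFAIP3 and BIRC3 rose in KG1A, whereas NFKBIA and NFKBIE stayed level.

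To see which other genes ran most like each member, log2 CPM were centred per gene and compared over the 8 libraries, taking the 2 genes with the smallest root mean square difference. These are descriptions over 8 libraries in 4 groups, which share their depth and scaling between genes. NFKB2 ran closest to SMAD7 (difference 0.106), the inhibitor of TGF-beta signalling, and CALCOCO1 (0.145). RELB ran closest to PBX3 (0.090) and to a gene whose symbol the deposited table holds as a date and whose identifier belongs to MARCHF2 (0.090). For NFKBIA the nearest were SNHG12 (0.057) and TOM1 (0.074), and for REL they were ANXA5 (0.072) and FAM129A (0.081). TNFAIP3 had no neighbour so close: MYO15B (0.207) and SDC4 (0.215), itself in the list of other targets, came next to it. BIRC3 came next to HRH4 (0.186) and RAB27B (0.199), and ICAM1 to NRBP2 (0.171) and C15orf52 (0.192). NFKB1 was nearest to TMTC3 (0.045) and KTN1 (0.047), RELA to HINFP (0.061) and ZNF226 (0.066), and NFKBIE to ZNF524 (0.082) and DZANK1 (0.089).

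The rest of the pathway was read from 6 lists with 91 genes, of which 87 were tested, the other 4 having too few counts. The lists were also chosen with earlier results of these data known. Shares and medians of the lists, here and below, are therefore descriptions and not independent results. In KG1A 45 were called higher and 8 lower in dG (51.7% and 9.2%), beside 29.6% and 19.6% of all genes. Their median log2 fold change was 0.23, beside 0.04. In U937 58 were called higher and 14 lower (66.7% and 16.1%), beside 32.4% and 31.5% of all genes, with a median of 0.45 beside 0. Called higher in both lines were 37 (42.5%, beside 15.4% of all genes) and lower in both 1. The 9 called in opposite directions (10.3%) were near the 7.44% of all genes.

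The list of other IkB proteins also held NKIRAS1 and NKIRAS2, which are not IkB proteins themselves. Of its 6 genes, 4 rose and 2 fell in KG1A, and 4 rose and 1 fell in U937. NKIRAS1 was among the rises in KG1A (0.29 ± 0.12). NKIRAS2 was among the falls in KG1A (-0.16 ± 0.06) and was the 1 that fell in U937 (-0.22 ± 0.07). Of all genes 49.1% and 64% were called in either direction in these comparisons. BCL3, a nuclear IkB that works with the NFKB2 product, rose from 21.5 to 37.1 CPM in KG1A (0.79 ± 0.07) and from 3.06 to 11.4 CPM in U937 (1.91 ± 0.12). NFKBIZ, another nuclear IkB, rose by 0.41 ± 0.06 in KG1A and 1.04 ± 0.12 in U937, and NFKBID by 0.46 ± 0.10 and 0.96 ± 0.11. NFKBIB, a further IkB, fell in KG1A (-0.36 ± 0.07) and rose in U937 (0.22 ± 0.07). In PBS both NFKBIZ (34.7 against 4.87 CPM) and BCL3 (21.5 against 3.06 CPM) were higher in KG1A.

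The IKK kinase list went both ways, with 4 of 7 higher and 1 lower in KG1A and 4 higher and 2 lower in U937, where 49.1% and 64% of all genes were called. The IKK subunit genes CHUK (-0.33 ± 0.05) and IKBKB (0.30 ± 0.05) moved apart in KG1A. TANK, an adaptor that binds TRAF proteins and TBK1, rose by 0.28 ± 0.05 in KG1A and 0.91 ± 0.04 in U937, whereas AZI2 (-0.64 ± 0.04) and IKBKE (-0.61 ± 0.08) fell in U937. AZI2 (45.2 against 148 CPM) and TBK1 (28.3 against 49.9 CPM) were higher in U937 than in KG1A in PBS.

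All 4 genes of the non-canonical arm were called higher in U937 and 3 of 4 in KG1A, without a 2-fold change, beside 32.4% and 29.6% of all genes. MAP3K14, the kinase at its head, rose from 7.70 to 11.4 CPM in KG1A (0.57 ± 0.12) and from 3.39 to 6.55 CPM in U937 (0.97 ± 0.16). Its KG1A call ended with RPKM (0.30 and 0.46 at pseudocounts of 1 and 0.1, adjusted p = 0.0728 and 0.103, and 0.131 at 1 with no filter), and without KG1A dG replicate 1 its log2 fold change was 0.34 (adjusted p = 0.0402). BIRC2, a ubiquitin ligase related to BIRC3, rose by 0.34 ± 0.04 and 0.46 ± 0.05, and its PBS level was higher in KG1A (141 against 46.6 CPM), as was that of MAP3K14. TRAF3, the adaptor that targets MAP3K14 for destruction, rose by 0.30 ± 0.04 in U937. TRAF2 rose in KG1A by 0.19 ± 0.08 (adjusted p = 0.0403), a call lost in 14 of 17 alternatives. It ended without replicate 1 of either KG1A group (PBS adjusted p = 0.296, dG adjusted p = 0.568), without U937 PBS replicate 2 (adjusted p = 0.0507) and without either U937 dG library (adjusted p = 0.216 and 0.215).

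Of 28 receptors and adaptors, 12 rose and 3 fell in KG1A (42.9% and 10.7%, beside 29.6% and 19.6% of all genes). In U937 13 rose and 7 fell (46.4% and 25%, beside 32.4% and 31.5%). TNFRSF1B, a receptor for TNF, rose from 5.41 to 19.0 CPM in KG1A (1.81 ± 0.10) and by 0.27 ± 0.05 in U937. TNFRSF1A, another TNF receptor, rose by 0.37 ± 0.04 in KG1A. It was among the genes that fell in U937, from 142 to 86.8 CPM (-0.70 ± 0.04). IL1R1, the signalling receptor for interleukin 1, rose by 1.29 ± 0.12 in KG1A and by 1.30 ± 0.28 in U937, where it gave 1.16 and 0.757 CPM in PBS and 1.59 and 3.34 CPM in dG. Without U937 dG replicate 2, the higher of that pair, the U937 value was 0.76 (adjusted p = 0.0422), and with RPKM at a pseudocount of 1 it was not called (0.25, adjusted p = 0.065, and 0.116 with no filter). IRAK2, a kinase-like adaptor of interleukin 1 and Toll-like receptors, rose by 0.82 ± 0.18 in KG1A and 1.37 ± 0.07 in U937. The TRAF family adaptor TRAF5 rose by 0.80 ± 0.04 in KG1A and 1.10 ± 0.05 in U937. TLR4 and TLR2, receptors for bacterial products, lay at 58.5 and 14.3 CPM in U937 PBS. In KG1A PBS, TLR4 lay at 0.0171 CPM and TLR2 had no count, which allows up to 0.0573 CPM (3 counts over the 2 libraries, counting error only).

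Negative regulators were called higher in 6 of 13 in KG1A, with 0 lower (beside 29.6% and 19.6% of all genes), and in 8 in U937, with 3 lower (beside 32.4% and 31.5%). CYLD, which removes the ubiquitin chains that carry the signal, rose by 0.70 ± 0.04 in KG1A and 0.77 ± 0.05 in U937. TNIP1, a partner of the TNFAIP3 product, rose by 0.73 ± 0.06 in KG1A, and the ligase ITCH by 0.77 ± 0.04 in U937. TNFAIP8L2 rose in KG1A from 6.64 to 11.2 CPM (0.76 ± 0.11) and fell in U937 from 12.02 to 4.38 CPM (-1.45 ± 0.12). Between the lines in PBS, TAX1BP1 (131 against 749 CPM) and TNIP1 (28.5 against 75.6 CPM) were higher in U937.

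Other target genes, most of them controlled by further pathways as well, were called higher in 16 of 29 in KG1A, with 2 lower (55.2% and 6.9%, beside 29.6% and 19.6% of all genes). In U937 25 of 29 were called higher and 1 lower (86.2% and 3.4%, beside 32.4% and 31.5%). The list's median log2 fold change was 0.35 in KG1A and 1.149 in U937, beside 0.04 and 0 over all genes. In KG1A, TRAF1, an adaptor, rose from 3.56 to 12.1 CPM (1.76 ± 0.12), the protease gene PLAU by 1.55 ± 0.15 and the syndecan SDC4 by 1.39 ± 0.06. These genes also rose in U937, TRAF1 by 1.30 ± 0.16, PLAU by 2.39 ± 0.04 and SDC4 by 1.05 ± 0.05. In U937, GADD45B, a stress gene that restrains JNK signalling, rose from 42.5 to 318 CPM (2.90 ± 0.04), IER3 by 2.50 ± 0.15 and the kynurenine pathway enzyme KYNU by 2.48 ± 0.29, from 0.47 to 2.68 CPM. GADD45B rose by 0.34 ± 0.07 in KG1A as well. KYNU was also called higher there (2.47 ± 0.76), at only 0.339 CPM in dG, and IER3 was not called. In PBS, TNFAIP2 lay at 32.8 CPM and PTX3 at 12.4 CPM in U937. In KG1A PBS, TNFAIP2 had no count, which allows up to 0.0573 CPM as for TLR2. PTX3 lay at 0.0866 CPM there, from 4 counts in replicate 1 and 0 in replicate 2. Its log2 difference between the lines went from 7.26 to 11.35 without KG1A PBS replicate 1, so its size is not settled.

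**Figure D4:**
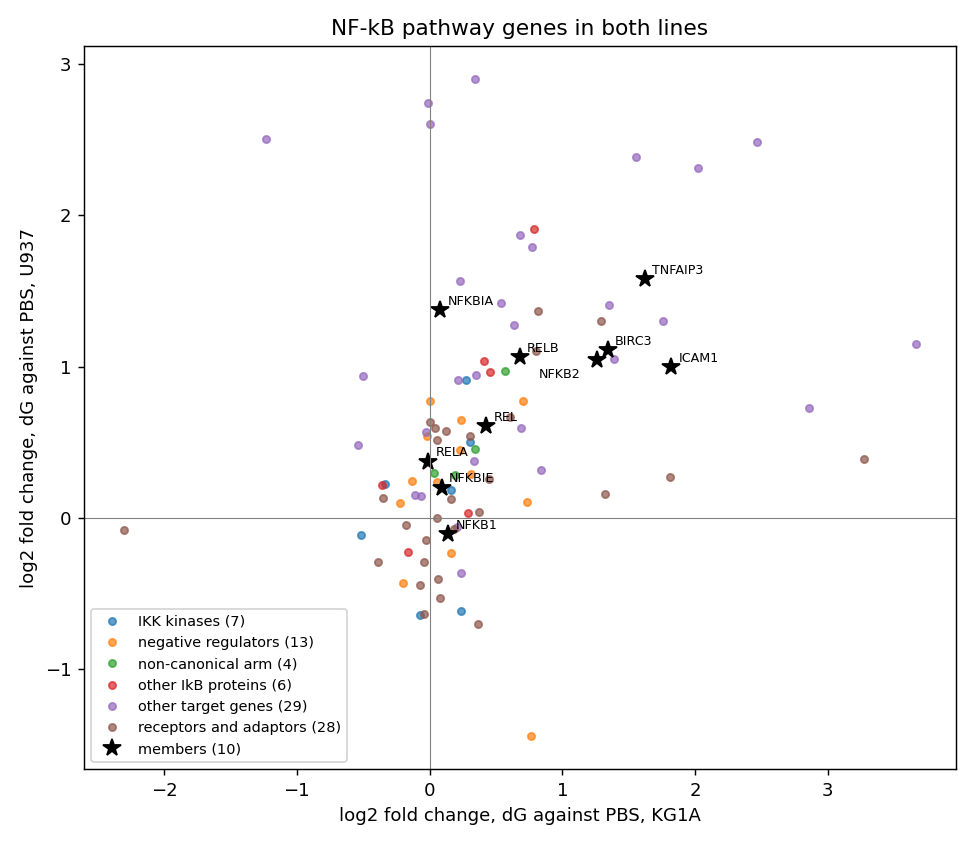
Each point is a gene at its log2 fold change for dG against PBS in KG1A (horizontal) and U937 (vertical). Stars are the 10 members and coloured dots the 87 tested genes of the 6 other lists; TNFAIP3 lies near the diagonal at 1.62 and 1.58, NFKBIA near the vertical zero line, and many of the other target genes lie higher in U937.

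In the annotation of the count table (GRCh38), the members lie at chromosome 4, 102501329 to 102617302 (NFKB1), chromosome 10, 102394110 to 102402529 (NFKB2), chromosome 19, 45001430 to 45038198 (RELB), chromosome 2, 60881521 to 60931610 (REL) and chromosome 11, 65653596 to 65663094 (RELA). NFKBIA lies at chromosome 14, 35401511 to 35404749, NFKBIE at chromosome 6, 44258166 to 44265788, TNFAIP3 at chromosome 6, 137867188 to 137883312, BIRC3 at chromosome 11, 102317450 to 102339403, and ICAM1 at chromosome 19, 10270835 to 10286615. Whether counting used strand was not given in the sources used here. TNFAIP3 overlaps an antisense gene with 23 to 96 counts per library, against at least 792 for TNFAIP3, and ICAM1 overlaps a pair with at most 8 counts, against at least 159. The pair of genes inside the REL span had at most 1 count, and the other 7 members overlap no gene of the table.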

How the data were processed

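The members and lists were chosen with earlier results of these data known. The authors deposited whole-number read counts and RPKM per gene for each library. Per the submitters' processing notes, the build was GRCh38 (hg38) and the tools included TopHat2, HTSeq (0.11.2) and also bcl2fastq (2.18.0.12), with no settings given. The deposited RPKM equalled counts per kilobase of exon and per library size scaled by edgeR's TMM factors over all genes. Comparison between genes rests on the summed length of all annotated exons, so a gene transcribed mainly as a short form is understated. Column names carry line, treatment and replicate, and "veh" was read as PBS from the labels.

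Counts were tested with edgeR 4.0.16 (R 4.3.3): filterByExpr, TMM, 1 mean per line and treatment over 8 libraries, 4 residual degrees of freedom, quasi-likelihood F test, two-sided, Benjamini-Hochberg over 18314 genes. The spread of each gene was drawn toward that of all genes, with a median of 31.04 prior degrees of freedom beside the 4 residual ones. Small p-values from 2 libraries a group therefore rest mostly on this shared spread. Intervals at 95% use the same standard errors. The test was also tried on simulated data in which every gene had the same spread, so that trial does not bear on the calls above. Named genes were all members. From each other list came, per line, up to 3 called genes with the largest absolute log2 fold change and at least 1 CPM (else the 1 with the highest mean), and in PBS the 2 largest. A gene named for 1 line may also have been called in the other. NKIRAS1, NKIRAS2, NFKBIB and TNFRSF1A were named besides, to show changes that this rule left out. Alternatives were other size factors, DESeq2 1.42.0, no filter, fewer libraries, a replicate block, and limma 3.58.1 on log2(RPKM + 1) or log2(RPKM + 0.1), where fold changes of low genes are understated. Of 20 neighbours by likeness, 1 had a symbol stored as a date and was named by its identifier.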

Additional observations from a re-analysis of the deposited data

Results flagged for a closer look

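For 6 of the 10 members the dG effect differed between the lines in edgeR's quasi-likelihood test of the difference itself (U937 effect minus KG1A effect, log2, adjusted over all genes). Of all genes tested, 44.1% were called in the same test. NFKBIA differed by 1.29 (adjusted p = 1.89e-14), with both U937 dG libraries above both PBS libraries and 1 of 2 KG1A dG libraries above them. ICAM1 differed by -0.83 (adjusted p = 2.22e-09), RELA by 0.38 (adjusted p = 1.33e-05) and RELB by 0.38 (adjusted p = 0.013). NFKB1 differed by -0.25 (adjusted p = 0.000893) and BIRC3 by -0.23 (adjusted p = 0.0168). Of 16 alternatives, 8 lost the BIRC3 call, 7 the NFKB1 call and 3 the RELB call.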

How the results depend on the processing

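Over 17 alternatives none of the 670 member values with a test turned direction past the threshold; 614 kept their side of it, 44 lost the call and 12 gained it. The members called higher numbered 6 to 7 in KG1A, 8 to 9 in U937 and 3 to 4 for the difference. The 1 member called lower in U937, NFKB1, became 0 with DESeq2-type size factors, DESeq2, no filter, the replicate block and each RPKM setting, and was 0 to 1 when 1 library was left out. The members called lower for the difference went from 3 to 1 with DESeq2, no filter and RPKM at a pseudocount of 0.1, and were 1 to 4 when 1 library was left out. In KG1A, NFKB1 lost its call in 9 of 17 alternatives (log2 fold change 0.07 to 0.16). Over all genes in KG1A the split of 5413 higher and 3581 lower became 3942 and 4039 with RPKM at a pseudocount of 1. The replicate numbers did not pair the libraries (correlation of same-numbered deviations -0.05 in KG1A and 0.008 in U937); the replicate block changed no other member's call. For the other pathway genes, the same alternatives were chosen after seeing the data. Values of single genes were followed only for the genes named by the fixed rule, in the comparison they were named for. Of these 816 values 796 kept their call and 20 lost it. These genes were picked as called with large changes, so none could gain a call and most were likely to keep it. Among all other pathway genes tested, those called lower in KG1A went from 8 to 5 with DESeq2. They went to 4 and 5 without KG1A dG replicate 2 or KG1A PBS replicate 2. They went to 12 with library size alone, with only the libraries compared and without either U937 dG library. Those called higher in KG1A went from 45 to 29 with unfiltered RPKM. Shares and ratios within a library do not depend on its scaling. With 2 libraries a group, small changes such as those of NFKB1 and NFKBIE could not be settled.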
